A study of Mus musculus with 6 samples.

Results

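The 9 genes described here are the receptor for interleukin-7 and the molecules through which it signals, measured in the RPE-choroid of control mice and of mice with subretinal fibrosis. They are the ligand Il7, the receptor chains Il7r, Il2rg and Crlf2, the kinases Jak1 and Jak3, the transcription factors Stat5a and Stat5b, and the T cell receptor gene Cd3e. They were picked by name, with the difference of Il7r between the groups already known, and 9 of 9 were found among the 15663 genes listed. The question was whether Il7r differed between the groups together with its signaling partners or together with the T cell gene Cd3e. Because the same comparison led to their choice, the values of the 9 genes are a description and carry no test.

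Interleukin-7 is a survival cytokine of lymphocytes, made by stromal and epithelial cells. It binds a receptor made of the alpha chain encoded by Il7r and the common gamma chain encoded by Il2rg, and the kinases JAK1 and JAK3 on these chains activate STAT5. The alpha chain also pairs with the chain encoded by Crlf2 to form the receptor of thymic stromal lymphopoietin (TSLP), a cytokine to which dendritic cells and other myeloid cells respond.

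The 6 libraries came from 3 untreated C57BL/6 mice and 3 C57BL/6 mice with laser-induced subretinal fibrosis, which the methods give as C57BL/6J males aged 8 to 10 weeks. In the fibrosis mice, 4 laser burns were placed in each eye, each lesion was burned again 10 days later, and RNA was taken 20 days after that later laser. The model is a laser injury of a healthy eye with no genetic change. RPE-choroid is the pigment epithelium with the vessel layer beneath it, sequenced as bulk tissue, so more cells of a type and more RNA per cell cannot be told apart.

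The libraries held between 13667310 and 24356023 counts, and 3 counts corresponded to between 0.123 and 0.220 CPM (counts scaled to library size). The summed level of the 10 RPE markers lay between 14238 and 23096 FPKM (fragments scaled to gene length and library size), so the labelled tissue was present in every library. Control mouse 1 and fibrosis mouse 3 stood apart, with summed photoreceptor markers at 6603 and 6612 FPKM against 431 to 931 in the other 4 libraries. With edgeR's quasi-likelihood test and Benjamini-Hochberg adjustment, 0 of the 13454 genes that exceeded 50 counts in 2 or more libraries were called at an adjusted p of 0.05 and a log2 fold change of 0.5, while 943 (7.01%) had an unadjusted p under 0.05. DESeq2 called 153 genes (1.14%) at the same limits, and edgeR called 153 of 13145 without those 2 photoreceptor-rich libraries, of which 85 were the same genes.

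Of the 9 genes, Il7r and Crlf2 had the largest ratios of fibrosis to control, and the RefSeq promoter windows of these 2 receptor genes are shown for that reason. Each window is the 250 bases before the RefSeq start in build GRCm38.p6, read 5′ to 3′ on the gene's own strand, which is the minus strand for both. Il7r lies at chr15:9505788-9530176 in the GENCODE M21 annotation and its window at chr15:9529877-9530126. That window is upstream of the RefSeq start but inside the span that GENCODE gives the gene. Crlf2 lies at chr5:109554709-109558993 and its window, immediately upstream, at chr5:109558994-109559243. In the same annotation, Il7 lies at chr3:7569994-7613760, Il2rg at chrX:101264378-101268255, Jak1 at chr4:101152367-101265282, Jak3 at chr8:71676296-71690575, Stat5a at chr11:100859351-100885169, Stat5b at chr11:100780731-100850724 and Cd3e at chr9:44998740-45009627. The build of the deposited counts is not given in the sources used here. The capitals mark matches on either strand to AGGAAG, an ETS-type motif (CTTCCT on the other strand), and to TTCNNNGAA, a STAT-type motif.
Il7r promoter: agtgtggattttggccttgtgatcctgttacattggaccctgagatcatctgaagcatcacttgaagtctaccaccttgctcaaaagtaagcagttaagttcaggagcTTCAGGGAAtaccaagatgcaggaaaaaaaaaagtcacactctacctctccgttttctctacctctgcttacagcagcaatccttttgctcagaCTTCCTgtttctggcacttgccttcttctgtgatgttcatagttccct
Crlf2 promoter: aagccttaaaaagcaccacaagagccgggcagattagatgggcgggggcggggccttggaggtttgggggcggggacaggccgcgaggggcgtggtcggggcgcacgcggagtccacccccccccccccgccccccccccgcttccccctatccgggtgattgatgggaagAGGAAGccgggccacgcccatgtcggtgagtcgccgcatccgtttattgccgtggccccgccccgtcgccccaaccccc
The Il7r window held 1 match to TTCNNNGAA, whose last base lay 134 bases before the start, and 1 match to AGGAAG, whose last base lay 43 bases before it. The Crlf2 window held 1 match to AGGAAG, whose last base lay 74 bases before the start, and 0 matches to TTCNNNGAA. AGGAAG was found in 29.5% and TTCNNNGAA in 7.02% of 32851 windows of this length, and AGGAAG was chosen after the windows had been read. These matches describe the letters only.

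The ligand gene Il7, encoding interleukin-7, was at a low level in all mice. It had 9, 14 and 16 counts in the control mice and 14, 12 and 15 in the fibrosis mice. This corresponded to 0.668, 0.758 and 0.666 CPM against 0.755, 0.667 and 0.838 CPM, so the groups overlapped. Il7 was under the count criterion, and in the fit of all genes with no filter its log2 fold change was 0.11 (SE 0.38, 95% interval −0.78 to 0.99). An interval of this width spans both a lower and a higher level in fibrosis, and no difference of Il7 was detectable at this depth.

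Il7r, the alpha chain, was low in control mice and higher in every fibrosis mouse. It had 19, 34 and 28 counts in the control mice and 107, 99 and 86 in the fibrosis mice. In CPM these were 1.41, 1.84 and 1.17 against 5.77, 5.50 and 4.81. The groups did not overlap, and the lowest fibrosis mouse stood well above the highest control mouse. The means were 1.47 ± 0.342 and 5.36 ± 0.498 CPM (SD, n = 3 each), a ratio of 3.64. The log2 fold change was 1.86 (SE 0.31, 95% interval 1.12 to 2.60), the rank 7 of 13454 tested genes from the highest. No control mouse exceeded 50 counts, so Il7r passed the count criterion through the fibrosis mice alone. Without the photoreceptor-rich libraries its log2 fold change was 1.91.

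Il2rg, the common gamma chain that Il7r needs to respond to interleukin-7, was at much higher levels and did not share this difference. Its CPM was 23.1, 28.5 and 22.9 in the control mice and 27.9, 26.7 and 25.7 in the fibrosis mice. All fibrosis values lay within the control range. The log2 fold change was 0.11 (SE 0.13, 95% interval −0.20 to 0.42).

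Crlf2, the chain that joins Il7r in the TSLP receptor, was nearer to Il7r. It had 66, 117 and 97 counts in the control mice and 197, 167 and 109 in the fibrosis mice, or 4.90, 6.33 and 4.04 against 10.6, 9.28 and 6.09 CPM. Fibrosis mice 1 and 2 exceeded every control mouse, while fibrosis mouse 3 lay just under control mouse 2, so the groups overlapped. The means were 5.09 ± 1.16 and 8.67 ± 2.33 CPM (SD, n = 3 each), with a log2 fold change of 0.77 (SE 0.30, 95% interval 0.06 to 1.48), the rank 277 of 13454. The fibrosis mouse with the lowest Crlf2 was also one of the photoreceptor-rich libraries, whose part in this was not tested. Without those 2 libraries the log2 fold change of Crlf2 was 0.94.

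**Figure D1:**
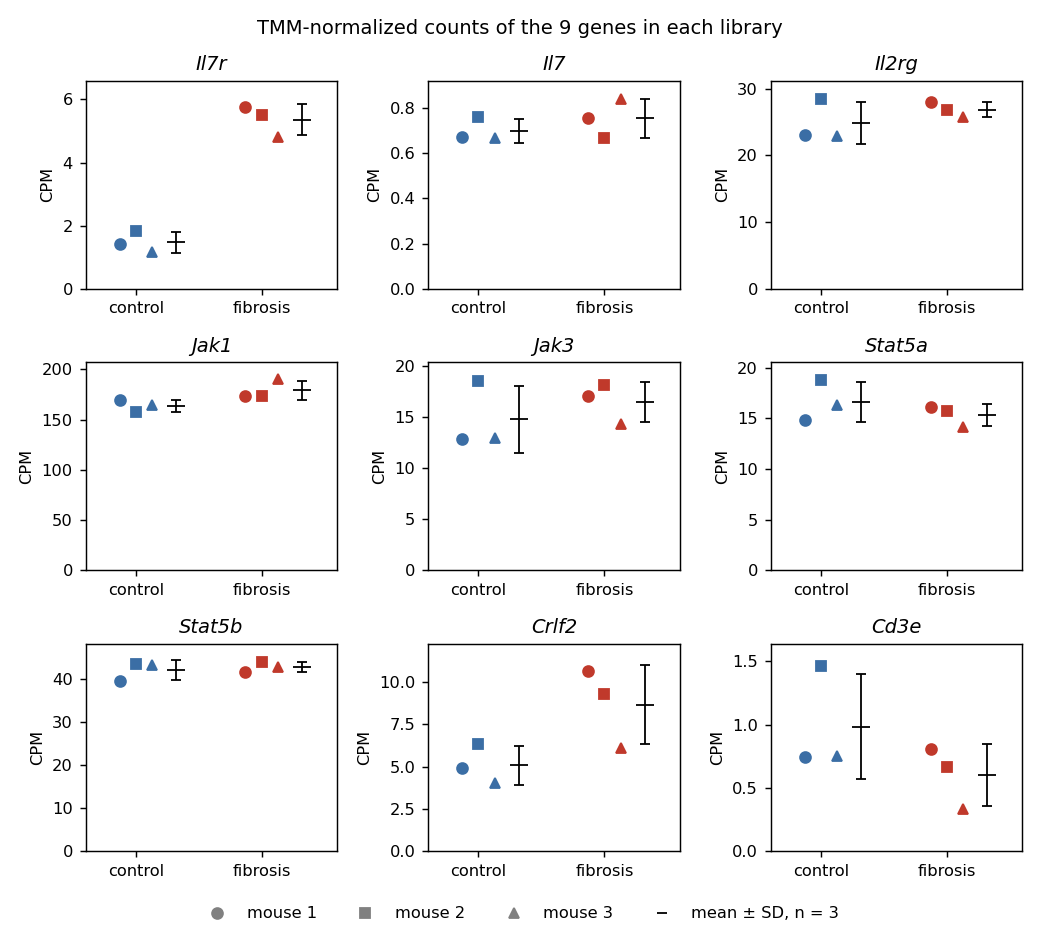
TMM-normalized CPM of the 9 genes in each library, with control mice in blue, fibrosis mice in red, the symbol giving the mouse and black bars the mean ± SD (n = 3). Only for Il7r and Jak1 do the red points all lie above the blue ones, with Il7r at 1.17 to 1.84 CPM in control and 4.81 to 5.77 CPM in fibrosis.

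Jak1, the kinase bound to the alpha chain and to many other cytokine receptors, was the most abundant of the 9 genes. Its CPM was 169, 157 and 164 in the control mice and 174, 174 and 190 in the fibrosis mice. The groups did not overlap, but the gap was small beside the level, and the log2 fold change was 0.13 (SE 0.10, 95% interval −0.11 to 0.37). Jak1 overlaps Raver2, a listed gene on the opposite strand, and whether the counting used strand is not given in the sources used here.

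Jak3, the kinase of the common gamma chain, had 12.8, 18.5 and 12.9 CPM in the control mice and 17.0, 18.1 and 14.3 CPM in the fibrosis mice. The highest value was that of control mouse 2, and the fibrosis mice lay between the control values. The log2 fold change was 0.16 (SE 0.20, 95% interval −0.32 to 0.64).

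Stat5a and Stat5b, the transcription factors that the receptor activates, were at nearly equal levels in the groups. Stat5a had 14.9, 18.8 and 16.3 CPM in the control mice and 16.1, 15.7 and 14.1 CPM in the fibrosis mice, and its log2 fold change was −0.12 (SE 0.15). The Stat5a groups overlapped in CPM, while in FPKM the fibrosis mice (4.54, 4.43 and 3.96) all lay just under the control mice (4.57, 4.90 and 4.79). Stat5b had 39.4, 43.5 and 43.2 CPM against 41.4, 43.8 and 42.6 CPM, with a log2 fold change of 0.02 (SE 0.11). The 2 genes are close paralogs whose reads the counting could split, and Stat5a overlaps Stat3 on the opposite strand, so their separate values are uncertain.

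Cd3e, a chain of the T cell receptor complex, was counted at a low level and did not follow Il7r. It had 10, 27 and 18 counts in the control mice and 15, 12 and 6 in the fibrosis mice, or 0.743, 1.46 and 0.749 against 0.809, 0.667 and 0.335 CPM. The groups overlapped, with the lowest value in a fibrosis mouse and the highest in a control mouse. Cd3e was under the count criterion, and in the fit with no filter its log2 fold change was −0.70 (SE 0.52, 95% interval −1.92 to 0.51).

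Counted over the 9 genes, 2 (Il7r and Jak1) were higher without overlap in fibrosis and 0 were lower without overlap, beside 6.68% and 5.98% of all 15663 genes. Of the 7 genes that passed the count criterion, edgeR called 0, beside 0% of all tested genes. DESeq2 called 1, Il7r, beside 1.14%, and 2 had an unadjusted p under 0.05 in edgeR, Il7r and Crlf2, beside 7.01%. Without the 2 photoreceptor-rich libraries edgeR called 0 of them, beside 1.16%. Since this comparison chose the genes, nothing is read from these counts.

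On the per-length scale of FPKM, the mean levels in control mice ran from Jak1 (32.8 ± 1.28) and Il2rg (15.3 ± 2.16) through Stat5b (8.09 ± 0.411), Stat5a (4.75 ± 0.168), Crlf2 (4.04 ± 0.816) and Jak3 (3.67 ± 0.777) to Cd3e (0.663 ± 0.274), Il7r (0.407 ± 0.0961) and Il7 (0.267 ± 0.0208; SD, n = 3 each). Among neighbours in this order, the control libraries of Stat5a and Crlf2 overlapped, as did those of Crlf2 and Jak3, and those of Cd3e (0.50 to 0.98 FPKM) and Il7r (0.32 to 0.51 FPKM). In fibrosis mice Il7r reached 1.54 ± 0.147 FPKM and passed Cd3e at 0.420 ± 0.171 FPKM without overlap. Crlf2 reached 6.90 ± 2.09 FPKM, above Stat5a at 4.31 ± 0.308 and Jak3 at 4.25 ± 0.574, though its lowest library, 4.62, lay under the highest of Jak3, 4.76.

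The balance between Il7r and its partners was then taken within each library. Il2rg exceeded Il7r 34.8 to 45.5 times in FPKM in the control mice and 10.6 to 11.6 times in the fibrosis mice, so the gamma chain remained far above the alpha chain in all 6 libraries. On the log2 scale the ratio of Il7r to Il2rg was higher in fibrosis by 1.80, that to Jak1 by 1.75, that to Jak3 by 1.72, that to Stat5a by 2.08 and that to Stat5b by 1.87. For each of these 5 ratios, all fibrosis mice lay above all control mice. The ratio of Il7r to Crlf2 was higher by 1.20 and that of Crlf2 to Il2rg by 0.60, again without overlap. The receptor and kinase genes therefore did not keep their proportions to Il7r, and Crlf2 kept them more nearly than the others. Because Il7r was chosen for its difference, its ratio to any gene nearly level between the groups must be higher in fibrosis. The ratios of Il7r given here and below restate the fold changes and carry no test.

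Against Cd3e, Il7r moved apart further. The log2 ratio of Il7r to Cd3e was −0.36, −0.94 and −0.67 in the control mice and 1.56, 1.76 and 2.57 in the fibrosis mice, a difference of 2.62 that rests on 6 to 27 Cd3e counts per library. Il7r was below Cd3e in every control mouse and above it in every fibrosis mouse.

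**Figure D2:**
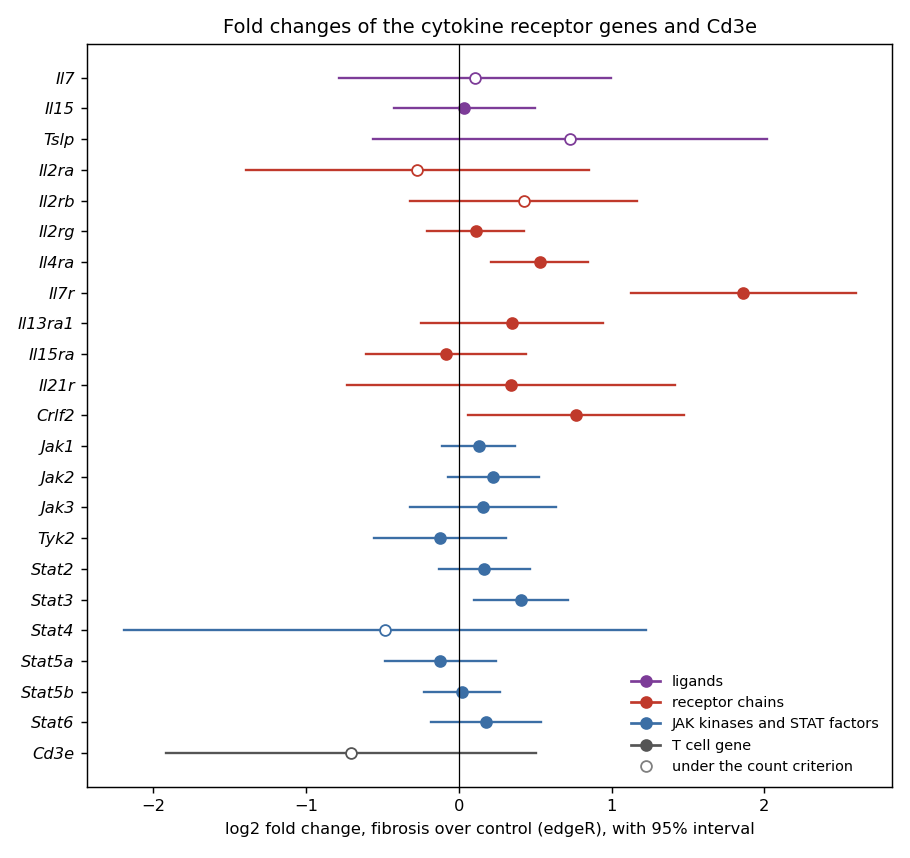
Log2 fold change of fibrosis over control (edgeR) with its 95% interval for ligands, receptor chains, JAK kinases and STAT factors of the pathway and for Cd3e, with open circles for genes under the count criterion. Il7r at 1.86 lies to the right of all other genes shown, and the intervals of Il2rg, Jak1, Jak3, Stat5a, Stat5b and Cd3e all include 0.

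The other genes of the pathway were taken from lists of cytokines, receptor chains, kinases and STATs, PI3K signaling, targets and inhibitors. Of their 54 genes, 49 were listed and 43 were tested, Il7r and its listed partners included. With edgeR's quasi-likelihood test, 0 of the 43 were called, 8 were higher and 1 was lower at an unadjusted p under 0.05, and their median log2 fold change was 0.13, beside 4.16% higher, 2.85% lower and a median of 0.00 over all tested genes. DESeq2 called 1, beside 1.14% of all tested genes, and this was Il7r, which was chosen for its difference. Without Il7r and the other genes described above, the median of the 36 tested genes was 0.10, and 6 of them lay higher and 1 lower at an unadjusted p under 0.05. Over the 43, the fibrosis mice lay above control without overlap for 11 and below it for 1, beside 6.71% and 6.43% of all tested genes.

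Among the ligands, Tslp, the cytokine of the receptor that Il7r and Crlf2 form, was detected at a low level. Its CPM was 1.41, 0.974 and 0.749 in the control mice and 2.10, 2.39 and 0.671 in the fibrosis mice. Fibrosis mice 1 and 2 exceeded all control mice and fibrosis mouse 3 lay below them, so the groups overlapped, and the log2 fold change was 0.73 (SE 0.55) in the fit with no filter. The same 2 fibrosis mice had the highest Crlf2. Il15, a cytokine for which Il2rg is also a receptor chain, had a log2 fold change of 0.04 (SE 0.19).

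Among the 7 tested receptor chains the median log2 fold change was 0.35. Il4ra, which pairs with Il2rg in the interleukin-4 receptor, had 17.6, 19.3 and 16.2 CPM in the control mice and 26.7, 26.7 and 23.1 CPM in the fibrosis mice, without overlap, and a log2 fold change of 0.53 (SE 0.13). Il13ra1, its partner for interleukin-13, was at 0.35 (SE 0.25), Il21r at 0.34 (SE 0.45) and Il15ra at −0.08 (SE 0.22). Under the count criterion, Il2rb was at 0.43 (SE 0.32), without overlap, and Il2ra at −0.27 (SE 0.48).

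Among the 10 tested kinases and STATs the median was 0.14. Stat3, which many cytokine receptors activate, was the only gene with an unadjusted p under 0.05 in edgeR, beside 7.01% of all tested genes. It had 131, 162 and 169 CPM in the control mice and 193, 210 and 210 CPM in the fibrosis mice, without overlap, and a log2 fold change of 0.41 (SE 0.13). Stat3 is the gene that overlaps Stat5a on the opposite strand. Jak2, the kinase of the Crlf2 chain, was at 0.23 (SE 0.13), without overlap (17.8 to 21.3 CPM in control, 22.9 to 23.4 CPM in fibrosis). Tyk2 was at −0.12 (SE 0.18), Stat2 at 0.17 (SE 0.13) and Stat6 at 0.18 (SE 0.15). Stat4, under the count criterion, was at −0.48 (SE 0.73).

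The tested targets of the receptor had a median near 0, while most of the inhibitors lay above 0. Among 8 tested targets, which include the survival genes Bcl2 and Mcl1 and the kinases Pim1 and Pim2, the median log2 fold change was −0.03. Of these, 0 had an unadjusted p under 0.05 in edgeR and 0 were called by DESeq2, beside 7.01% and 1.14% of all tested genes. Osm, a target under the count criterion, was at 0.85 (SE 0.43) in the fit with no filter, higher without overlap. Of the 9 tested inhibitors, 7 had a log2 fold change above 0, beside 50.3% of all tested genes, and their median was 0.21. In edgeR 3 were higher at an unadjusted p under 0.05, and 4 were higher without overlap, beside 4.16% and 6.71% of all tested genes. Cish, a STAT5-induced inhibitor of cytokine signaling, was at −0.09 (SE 0.33). Socs1 and Socs3, inhibitors induced by many cytokines, had log2 fold changes of 0.80 (SE 0.23) and 0.54 (SE 0.17), both without overlap of the groups. The phosphatase gene Ptprc was at 0.42 (SE 0.15), also without overlap. Of the PI3K genes, Akt1 was at 0.41 (SE 0.11), without overlap. Klf2, a transcription factor that restrains endothelial and T cell activation, had 95.9, 163 and 125 CPM in the control mice and 77.0, 85.7 and 77.0 CPM in the fibrosis mice, a log2 fold change of −0.68 (SE 0.19). Klf2 was the pathway gene called by edgeR without the photoreceptor-rich libraries, with a log2 fold change of −0.83.

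Cd3e stood for T cells in the question, and the list of 21 T cell markers also did not follow Il7r. All 21 were listed but 15 of them, Cd3e included, were under the count criterion. Of the 6 tested, edgeR called 0, 0 had an unadjusted p under 0.05 in edgeR and DESeq2 called 0, beside 0%, 7.01% and 1.14% of all tested genes. Their median log2 fold change was −0.06. In the fit with no filter, 18 of the 21 had a log2 fold change below 0, beside 49.6% of all listed genes, and their median was −0.67. In that fit 5 of the 21 were lower at an unadjusted p under 0.05, among them Cd3d, Cd5, Cd6 and Cd8b1, beside 2.75% of all listed genes, and edgeR called 0 of the 21 after adjustment. The fibrosis mice were lower without overlap for 9 of the 21 and higher for 0, beside 5.98% and 6.68% of all listed genes.

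The defining markers were lowly counted throughout. Cd3d, a partner chain of Cd3e, had 22, 35 and 25 counts in the control mice and 16, 7 and 14 in the fibrosis mice, with no overlap in CPM. Cd3g had 33, 21 and 45 counts against 21, 21 and 20, and Trac, the constant segment of the T cell receptor alpha chain, had 26, 51 and 49 against 38, 33 and 33. Cd8a, the coreceptor of cytotoxic T cells, had 27, 14 and 19 counts against 3, 2 and 13. Lck, a T cell kinase, had 61, 100 and 114 counts against 64, 46 and 66, and its CPM in fibrosis lay below control without overlap (log2 fold change −0.60, SE 0.28). Cd4 had 30, 94 and 139 counts against 125, 65 and 116, with a log2 fold change of 0.35 (SE 0.43).

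**Figure D3:**
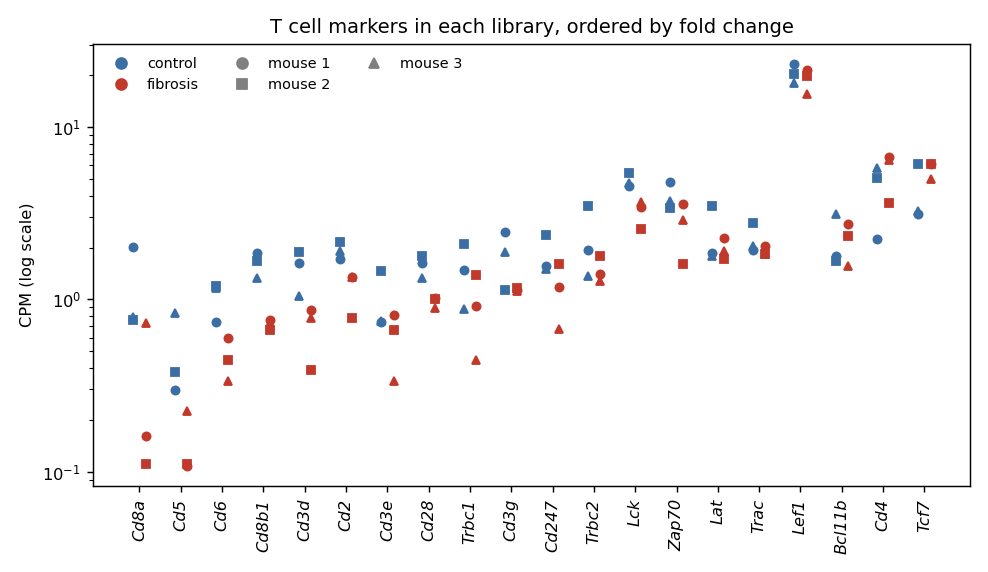
CPM on a log scale of 20 of the T cell markers in each library, ordered by log2 fold change, with control mice in blue, fibrosis mice in red and the symbol giving the mouse. From Cd8a to Cd8b1 the red points lie below the blue ones, while Cd4 and Tcf7 at the right end overlap.

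The summed FPKM of the T cell markers was 32.8, 36.6 and 28.5 in the control mice and 27.9, 24.9 and 23.6 in the fibrosis mice. The groups did not overlap, but the margin between control mouse 3 (28.5) and fibrosis mouse 1 (27.9) was narrow. The log2 ratio of Il7r to this sum was −6.39, −6.16 and −6.48 in the control mice and −4.08, −3.97 and −4.11 in the fibrosis mice, a difference of 2.29. Leaving Cd3e out of the sum gave 2.29 as well. The markers of natural killer and innate lymphoid cells, some of which carry Il7r, summed to 12.4 to 13.7 FPKM in control and 7.48 to 10.3 FPKM in fibrosis. Nkg7 alone gave 7.23 ± 0.129 FPKM of this sum in control and 3.78 ± 0.752 FPKM in fibrosis (SD, n = 3 each). In the fit with no filter, 9 of the 14 markers had a log2 fold change below 0 and 5 above, beside 49.6% of all listed genes below 0. Of these 14 markers only Nkg7, a cytotoxic granule gene, was tested, with a log2 fold change of −0.99 (SE 0.25).

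Most macrophage and pan-leukocyte markers differed in the direction of Il7r. All 14 macrophage markers were tested, 13 of them had a log2 fold change above 0, beside 50.3% of all tested genes, and their median was 0.78. With edgeR 0 were called, 9 were higher at an unadjusted p under 0.05 (4.16% of all tested genes), and DESeq2 called 6, all higher (0.803%). The same 6 (Cd68, Lyz2, C1qb, C1qc, Tyrobp and Fcer1g) were called by edgeR without the photoreceptor-rich libraries, beside 0.837% of genes called higher there. Cd68, a lysosomal glycoprotein of macrophages, had 68.3, 88.7 and 76.1 CPM against 154, 189 and 138 CPM. Csf1r, the receptor of macrophage colony-stimulating factor, had 146, 165 and 175 CPM against 166, 150 and 160 CPM and did not share the pattern. Itgam, at 0.03 (SE 0.34), did not share it either, and Adgre1, Aif1, Mrc1 and Fcgr1 overlapped between the groups. Of the 14 markers, 8 were higher without overlap and 0 lower, beside 6.71% and 6.43% of all tested genes.

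The summed macrophage markers were 1137, 1466 and 1425 FPKM in the control mice and 2750, 3949 and 2795 FPKM in the fibrosis mice, of which Lyz2 alone gave 48.8% to 65.1%. The log2 ratio of Il7r to this sum was −11.51, −11.49 and −12.12 in the control mice and −10.70, −11.28 and −10.99 in the fibrosis mice, a difference of 0.71. With Lyz2 left out, an alternative added after the values were seen, the difference was 1.11. For the full sum, Lyz2 included, the difference turned to −0.37 when 1 was added to the FPKM of Il7r and to the sum, since Il7r lies below 2 FPKM in every library. The log2 ratio of Crlf2 to the macrophage sum was lower in fibrosis by 0.48, with overlapping groups. Of the ratios to marker lists, that to macrophages thus changed least, while those to pan-leukocyte markers and to dendritic cell markers changed by 1.26 and 1.61.

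**Figure D4:**
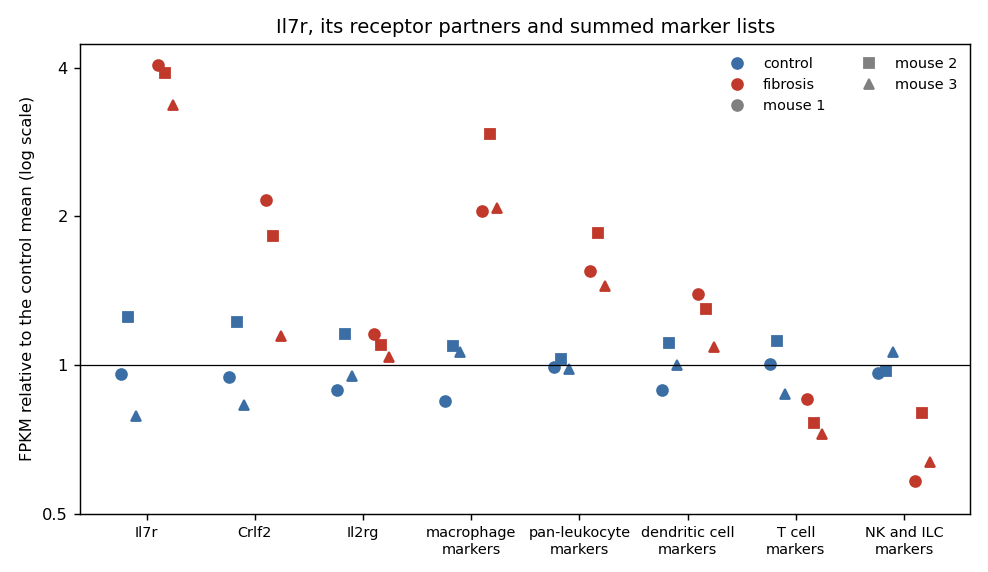
FPKM of Il7r, Crlf2 and Il2rg and summed FPKM of 5 marker lists in each library, divided by the control mean, on a log scale, with control mice in blue and fibrosis mice in red. Il7r and the macrophage and pan-leukocyte sums lie above control in all fibrosis mice, the T cell and NK and ILC sums below it.

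The summed pan-leukocyte markers were 112 to 117 FPKM in control and 165 to 211 FPKM in fibrosis, without overlap. Of the 6 markers, 5 were higher at an unadjusted p under 0.05 in edgeR (Ptprc, Itgb2, Laptm5, Cd53 and Coro1a), beside 4.16% of all tested genes. The dendritic cell markers summed to 12.0 to 14.9 against 14.7 to 18.8 FPKM and overlapped. Of these only Itgax, an integrin that macrophages also carry, was called by DESeq2 (1.14% of all tested genes), with a log2 fold change of 1.27 (SE 0.24). In the fit with no filter, 6 of the 9 dendritic cell markers had a log2 fold change above 0 and 3 below. Flt3, at −0.64 (SE 0.41), was lower in fibrosis without overlap, and Xcr1 was at −0.94 (SE 0.44), both under the count criterion. Ccr7, the homing receptor of migrating dendritic cells and naive T cells, was at −0.10 (SE 0.59) under the count criterion. The B cell markers summed to 3.82 to 7.06 against 6.94 to 7.58 FPKM. Cd22, an inhibitory lectin of B cells, was at 1.51 (SE 0.29), whereas Cd79a and Cd79b, which define B cells, were at 0.29 (SE 0.39) and 0.31 (SE 0.28). Which cells held the Il7r transcript was not tested, since the tissue was sequenced in bulk.

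Genes were last ranked by how closely their pattern over the 6 libraries followed that of Il7r, using the root mean square difference of log2(CPM + 0.5) after centring each gene on its own mean. The 10 nearest of 13453 genes were Prrx2 (0.16), Jund (0.20), Smarcd3 (0.21), Elobl (0.22), Clec7a (0.25), Ctss (0.26), Cd22 (0.26), Ppp1r37 (0.28), Metrnl (0.29) and Lyz2 (0.29), all on the log2 scale. Prrx2, a homeobox gene, had 6.61, 5.95 and 5.37 CPM in the control mice and 19.9, 19.7 and 14.4 CPM in the fibrosis mice. Clec7a, a receptor for fungal glucans on myeloid cells, had 11.1, 12.3 and 12.3 CPM against 26.7, 38.4 and 32.6 CPM, and Ctss, a lysosomal protease, had 172, 177 and 191 against 446, 676 and 529. Cd68 held rank 18 and Crlf2 rank 148 in this order. The signaling partners stood farther off, with Jak3 at rank 1787, Il2rg at 2413, Jak1 at 2935, Stat5b at 4689 and Stat5a at 7415, and Csf1r at 6056. This order is dominated by the difference between the groups and rests on the same 6 libraries.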

How the data were processed

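RPE-choroid RNA from 3 control and 3 subretinal fibrosis mice was sequenced on an Illumina platform. The authors deposited read counts and FPKM values per gene and library. The submitters' processing notes name StringTie and DESeq2, and the aligner, genome build, annotation and strand setting of the counting are not given in the sources used here. Symbols were taken from GENCODE M21 (GRCm38), which named 15659 of 15663 identifiers.

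Counts were normalized with TMM (factors 0.978 to 1.03) and fitted with edgeR 4.0.16 (glmQLFit with legacy = TRUE, R 4.3.3) for genes that exceeded 50 counts in 2 or more libraries. DESeq2 1.42.0 and limma 3.58.1 on log2(FPKM + 0.1 or 1) were alternatives. The other alternatives were RLE factors, no or another count filter, legacy = FALSE, each mouse left out, and control mouse 1 with fibrosis mouse 3 left out. The counting-depth floor was 3 counts, which covers counting error only. P-values set the difference between the groups against the spread between these mice, which is estimated with information shared across genes. Ratios within a library used FPKM, with CPM as a later alternative. The fit was tested on simulated data.

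The 9 genes and the lists were chosen with earlier results of these data known. List genes were named if they were receptor chains, kinases or STATs, had an unadjusted p under 0.05 or were defining markers; the 10 genes most like Il7r were also named. Values of 2 list genes are not reported here.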

Additional observations from a re-analysis of the deposited data

How the results depend on the processing

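Over all tested genes, where edgeR called 0, 153 were called by DESeq2 and 153 without the photoreceptor-rich pair of libraries. One setting at a time, 1 was called with no filter on low counts, 1 with filterByExpr, 1 with legacy = FALSE, 2 by limma on log2(FPKM + 0.1) and 2 on log2(FPKM + 1). Leaving out each mouse gave 0 to 5 calls, with 5 without control mouse 1. The cause of these differences in calls was not tested. Of the 9 genes, DESeq2 called 1, Il7r. Of the pathway lists, DESeq2 called 1, Il7r, and the fit without the pair called 1, Klf2. Of the macrophage markers, both called 6. Over all tested genes, DESeq2 called 1.14% and the fit without the pair 1.16%. The T cell list had 0 calls under all 15 alternatives. Only 6 of its 21 markers passed the count criterion, and most settings called few genes of any kind. These 0 calls therefore say little about T cell genes.

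The log2 fold change of Il7r was 0.85 by limma on log2(FPKM + 1), which compresses low levels, and 1.71 to 2.06 with each mouse left out. It was above 0 in all 15 alternatives. The log2 ratio of Il7r to Il2rg differed by 1.56 with 0.1 and 0.72 with 1 added to FPKM (1.67 to 1.86 with each mouse left out). The ratio to T cell markers differed by 2.06 and 1.19 (2.23 to 2.38), and the ratio to macrophage markers by −0.37 with 1 added (0.51 to 0.86). The log2 fold change of Crlf2 ran from 0.59 without fibrosis mouse 1 to 0.97 without fibrosis mouse 3. Il7 and Stat5b, near 0 throughout, changed sign in some alternatives.

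Mice with the same number were different animals, and their deviations from the group means correlated at −0.47, 0.50 and −0.28, so the numbers do not pair them. With the replicate block edgeR called 0 genes and the log2 fold change of Il7r was 1.88.

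Il7, Cd3e and most T cell markers were under the count criterion, with wide intervals (−0.78 to 0.99 for Il7, −1.92 to 0.51 for Cd3e). In edgeR's fit with no filter, 5 of the 21 T cell markers still had an unadjusted p under 0.05, but smaller differences could go unseen at this depth.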

Other observations

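Lists of tissue cells were measured beside the leukocyte lists. Of the 10 RPE markers, 5 were lower in fibrosis at an unadjusted p under 0.05 in edgeR (2.85% of all tested genes), 0 were higher and 0 were called by edgeR. They were Rpe65 at −0.51 (SE 0.17), Rlbp1 at −0.30 (SE 0.11), Lrat at −0.74 (SE 0.13) and Rgr at −0.69 (SE 0.12), which serve the visual cycle, and the pigment cell factor Mitf at −0.55 (SE 0.16), as log2 fold changes. DESeq2 called Lrat and Rgr, beside 0.334% of all tested genes called lower. The summed RPE markers overlapped between the groups.

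Of the lymphatic endothelial markers, which mark another cell type that can carry Il7r, the 5 tested genes had log2 fold changes between −0.38 and −0.01. Only Pdpn had an unadjusted p under 0.05 in edgeR, with 692 ± 44.3 CPM in the control mice against 531 ± 59.5 CPM in the fibrosis mice (SD, n = 3 each). Pdpn gave 375 FPKM of a summed mean of 402 FPKM in control. Prox1 had 38.8 and 36.9 CPM in the photoreceptor-rich control mouse 1 and fibrosis mouse 3, and 3.78 to 10.1 CPM in the others. Whether these markers follow lymphatic cells in this tissue was not tested.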
